A study of Mus musculus with 384 samples.

Results

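Selenbp2, Capn8, Susd4 and Obp2a are 4 of the 21454 genes in a table of liver transcript signals, and they were chosen by their higher signal in males than in females, outside the cytochrome P450 and major urinary protein families. The male minus female differences are therefore described here without a test. The table covers 192 Diversity Outbred (J:DO) mice, an outbred and wild-type stock in which each animal carries its own mix of founder alleles. All were 26 weeks old and had eaten their diet since weaning. The groups were 46 males on high fat (TD.08811, 22% fat by weight), 48 males on chow (LabDiet 5K52, 6% fat), 48 females on high fat and 50 females on chow. Every mouse was sequenced as 2 technical repeats that share 1 column, so the mouse was the replicate. Each group held mice of both generation labels, G11L1 and G11L2, which are called generations below. Males and females are marked M and F in the plots.

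Many liver genes differ between the sexes because the pituitary releases growth hormone in pulses in male rodents and more steadily in females, and the transcription factor STAT5B carries that pattern to hepatocyte genes. Selenbp2 encodes a selenium-binding protein known in mouse liver for binding the reactive metabolite of acetaminophen. Capn8 encodes a calpain, a calcium-dependent protease best known from the mucus cells of the stomach. Susd4 encodes a sushi-domain membrane protein that inhibits complement, and Obp2a encodes an odorant-binding protein of the lipocalin family, whose members carry small lipophilic molecules.

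On GRCm38, Selenbp2 (ENSMUSG00000068877) lies on the plus strand of chromosome 3 at 94693556 to 94704413, and its paralog Selenbp1 begins 239.5 kb further on. Capn8 (ENSMUSG00000038599, chromosome 1, 182565007 to 182632352) and Susd4 (ENSMUSG00000038576, chromosome 1, 182763860 to 182896591) are neighbours on the plus strand with 131.5 kb between them. Obp2a (ENSMUSG00000062061) lies on chromosome 2 at 25700043 to 25703326, also on the plus strand. All 4 are annotated as protein-coding in GENCODE M21.

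The windows around the transcription start (250 bases before to 50 after, RefSeq, GRCm38.p6) are shown for Selenbp2 and Selenbp1, because these copies have closely similar starts and different sex patterns. Over 288 aligned bases 272 were identical (94.4%), and capitals mark the 16 substituted bases and the 12 bases of Selenbp2 that have no partner, with the first and last bases of Selenbp1, outside the aligned stretch, left in lower case although they were not aligned.
Selenbp2 promoter window, chr3:94693323-94693622, plus strand: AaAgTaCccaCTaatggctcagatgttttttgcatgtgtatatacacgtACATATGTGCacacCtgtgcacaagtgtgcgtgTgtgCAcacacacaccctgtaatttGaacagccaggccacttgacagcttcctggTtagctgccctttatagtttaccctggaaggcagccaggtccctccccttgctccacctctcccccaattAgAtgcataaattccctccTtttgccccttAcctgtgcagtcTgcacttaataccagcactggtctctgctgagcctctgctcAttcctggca
Selenbp1 promoter window, chr3:94932833-94933132, plus strand: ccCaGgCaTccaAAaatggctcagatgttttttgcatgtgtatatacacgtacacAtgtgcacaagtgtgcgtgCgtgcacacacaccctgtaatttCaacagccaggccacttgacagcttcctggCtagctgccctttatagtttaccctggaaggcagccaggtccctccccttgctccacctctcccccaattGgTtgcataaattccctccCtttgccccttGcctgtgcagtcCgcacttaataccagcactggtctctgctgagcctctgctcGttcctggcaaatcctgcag

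The windows of Capn8, Obp2a and Susd4 are shown because the text below sets these genes beside each other or beside their neighbours. Capitals mark TATAAA, the only motif searched that occurred in any of the 3.
Capn8 promoter window, chr1:182564757-182565056, plus strand: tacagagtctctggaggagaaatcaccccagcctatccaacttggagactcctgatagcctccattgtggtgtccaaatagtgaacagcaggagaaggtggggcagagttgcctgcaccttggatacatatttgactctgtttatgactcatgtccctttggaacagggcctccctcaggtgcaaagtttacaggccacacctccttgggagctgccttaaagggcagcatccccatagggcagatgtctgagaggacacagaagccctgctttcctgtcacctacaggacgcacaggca
Obp2a promoter window, chr2:25699824-25700123, plus strand: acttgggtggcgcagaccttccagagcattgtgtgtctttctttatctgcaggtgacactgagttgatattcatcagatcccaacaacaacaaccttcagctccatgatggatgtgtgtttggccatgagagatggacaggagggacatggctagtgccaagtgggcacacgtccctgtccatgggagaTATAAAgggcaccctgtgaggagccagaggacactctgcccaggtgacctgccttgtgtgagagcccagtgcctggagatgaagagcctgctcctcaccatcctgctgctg
Susd4 promoter window, chr1:182763966-182764265, plus strand: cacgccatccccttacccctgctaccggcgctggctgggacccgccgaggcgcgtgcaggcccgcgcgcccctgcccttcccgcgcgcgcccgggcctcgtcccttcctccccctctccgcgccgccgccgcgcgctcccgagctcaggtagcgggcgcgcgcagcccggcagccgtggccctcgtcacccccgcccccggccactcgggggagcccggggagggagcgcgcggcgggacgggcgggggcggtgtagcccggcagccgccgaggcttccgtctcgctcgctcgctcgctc

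TATAAA, the letters of a TATA box, was searched on either strand. It was found in the windows of Obp2a, Selenbp2 and Selenbp1, and in 13.6% of 32544 mouse windows of the same length. The match lay at -61 from the start in Obp2a, on the strand of the gene. In Selenbp2 (at -103) and Selenbp1 (at -113) it lay on the opposite strand, so the gene's strand reads TTTATA. Whether any of them acts as a TATA box was not tested. CCAAT was found in those of Selenbp2 and Selenbp1, against 37.4% of all windows. The letters TTCNNNGAA (the STAT5 palindrome, 8.33% of all windows), TGTTTAC (forkhead, 3.66%) and CAAAGTCCA (HNF4, 0.479%) were in none of the windows of the 4 genes. The Susd4 window shown held 81.3% G and C, and a second annotated start of that gene had 63.7%, against 50.0% for Selenbp2, 52.7% for Capn8 and 54.0% for Obp2a.

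Values are the deposited signal, scaled by the authors to the upper quartile of each mouse, in which 1 unit stood for about 63.4 reads in the median mouse. Estimated depth was 9.79 to 17.9 M reads. The signal is not per length, so levels are compared between mice and not between genes. The 10 hepatocyte markers, among them Alb and Apoa1, had a summed signal of 14878 or more in every mouse, as the liver label says. Markers of other tissues in which Capn8 or odorant-binding proteins are known were low. Of 13 listed gastric markers 7 were measured. These summed to a median of 0.261 in males on high fat, 0.389 in males on chow, 0.253 in females on high fat and 0.301 in females on chow, with 1 female on high fat at 84.6. That female had a Capn8 signal of 0.015, rank 34 of 48 in her group. Of 11 listed nasal and lacrimal gland markers only 2 were measured, and these summed to at most 0.06 in any mouse. Pancreas transcripts stood out in 10 mice, 1 female on chow had an Xist signal of 0.361 where the female median was 213, and 10 mice were least like the others in their group. No diet call on the level of the 4 genes changed without the pancreas mice, the low Xist mouse or the 10 least alike mice.

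Selenbp2 had a signal of 2.01 to 838 in males on high fat (median 134) and of 2.31 to 535 in males on chow (median 146). In females it ran from 0.395 to 28.3 on high fat (median 1.71) and from 0.368 to 59.3 on chow (median 1.41). The sexes overlapped: 16 of 46 males on high fat and 16 of 48 on chow were at or below the highest female on that diet, while no male was at or below the female median. The male distribution had a long low arm, in which 12 of 46 males on high fat and 11 of 48 on chow had a signal below 13.4 and 14.6, or 0.1 of their group's median. The highest female on chow, at 59.3, stood far above the next at 13.7.

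Selenbp1, which shares sequence with Selenbp2, had no such pattern. Its medians were 58.8 in males on high fat, 64.9 in males on chow, 70.4 in females on high fat and 81.4 in females on chow. The coefficient of variation of Selenbp1 between mice was 21.2% in males on high fat and 21.0% in males on chow, and that of Selenbp2 was 114% in males on high fat and 87.1% in males on chow. Of the 25-base words in Selenbp2 transcripts 65.0% also occur in Selenbp1, as do 17.4% of the 100-base words, the length of a read. How the authors' counting divided such reads is not given in the sources used here, so the low values of Selenbp2 in females are uncertain. Obp2a shared 14.7% of its 25-base words with Obp2b, which was not analysed here, Capn8 shared 0.0531% with Capn9, and Susd4 shared none with another gene.

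Capn8 had a signal of 0.108 to 16.8 in males on high fat (median 3.30) and of 0.247 to 11.8 in males on chow (median 5.86). In females it ran from 0 to 0.562 on high fat (median 0.027) and from 0.013 to 0.517 on chow (median 0.052). Those medians stand for about 2.00 reads in females on high fat and 4.00 in females on chow, and 32 of 48 females on high fat and 16 of 50 on chow had fewer than 3 reads. Overlap of the sexes was small, with 4 of 46 males on high fat and 1 of 48 on chow at or below the highest female.

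Susd4 had a signal of 0.458 to 20.2 in males on high fat (median 8.04) and of 1.79 to 31.9 in males on chow (median 11.9). In females it ran from 0.036 to 3.28 on high fat (median 0.170) and from 0.041 to 4.88 on chow (median 0.235). In 11 of 46 males on high fat and 2 of 48 on chow Susd4 was at or below the highest female. Of the 4 genes it was the least variable among males on chow, with a coefficient of variation of 47.7%.

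Obp2a had a signal of 0 to 32.1 in males on high fat (median 0.519) and of 0 to 131 in males on chow (median 2.80). In females it ran from 0 to 0.171 on high fat (median 0.014) and from 0 to 0.053 on chow (median 0). It was under 3 reads in 41 of 48 females on high fat and 47 of 50 on chow, and also in 12 of 46 males on high fat and 4 of 48 males on chow. A fold over females is therefore not given. Among males its coefficient of variation was 218% on high fat and 230% on chow, the highest of the 4 genes.

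**Figure D1:**
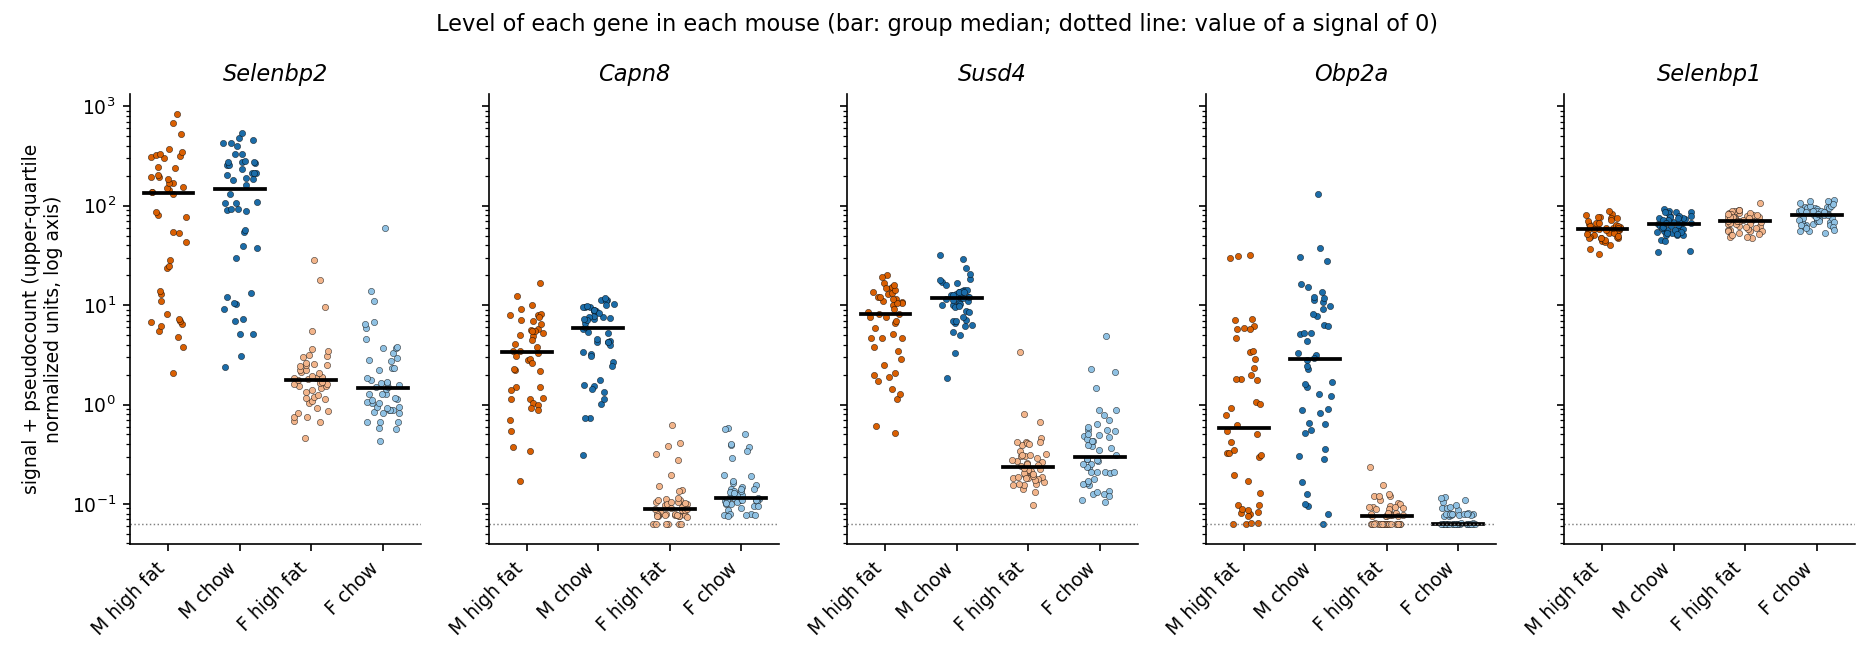
Signal plus pseudocount (log axis, upper-quartile normalized units) of the 4 genes and of Selenbp1 in every mouse, 1 point per mouse, with the group median as a bar. Male medians lie well above female medians for Selenbp2, Capn8 and Susd4 while the ranges overlap, with 16 of 46 males on high fat at or below the highest female for Selenbp2 and 11 of 46 for Susd4. Most females sit at the floor for Obp2a, and Selenbp1 has medians between 58.8 and 81.4.

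On the scale of log2(signal + 0.0629), whose pseudocount stands for about 3.99 reads, averaged over the diets, the male minus female difference was 5.33 ± 0.26 (SE) for Selenbp2, 4.86 ± 0.16 for Capn8, 4.76 ± 0.15 for Susd4 and 4.08 ± 0.27 for Obp2a. These were ranks 8, 11, 13 and 21 of 14598 tested genes, and they are the values by which the genes were chosen. The ratio of medians, males over females, was 78.4 on high fat and 104 on chow for Selenbp2. It was 122 on high fat and 112 on chow for Capn8, where the female medians are near the floor, and 47.1 on high fat and 50.5 on chow for Susd4.

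A few females were high for more than 1 of these genes. The female highest for Susd4 on high fat (3.28) was also the highest for Capn8 (0.562), and her signal of Cyp4a12a, a male-biased fatty acid hydroxylase, was 36.8. The female highest for Susd4 on chow (4.88) ranked 3 of 50 for Capn8 (0.448) and 2 of 50 for Selenbp2 (13.7), with a Cyp4a12a signal of 21.1. Their Xist signals were 287 on high fat and 194 on chow. Other females high for both Capn8 and Susd4 had low Cyp4a12a signals. On high fat the female ranked 2 for both genes had 0.328. On chow the female ranked 1 for Capn8 and 2 for Susd4 had 0.641, and the female ranked 2 for Capn8 and 3 for Susd4 had 0.348. The females highest for Selenbp2, at 28.3 on high fat and 59.3 on chow, had Cyp4a12a signals of 0.575 on high fat and 0.309 on chow and ranked 48 of 48 and 31 of 50 for Susd4. The female with low Xist had a signal of 1.52 for Selenbp2 and 0.388 for Susd4, ranks 23 and 18 of 50.

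The diet comparison asked whether the high-fat diet changed these transcripts. In males, Capn8, Susd4 and Obp2a fell on high fat and Selenbp2 did not pass the test. limma called 51.2% of all tested genes in this comparison, and 39.8% of all tested genes were called lower, so calls were common. The median log2 change over all genes was -0.097 with the deposited scaling and 0.0053 with median-of-ratios rescaling. Of the called genes 22.3% were higher as deposited, 53.6% with that rescaling and 45.2% with quantile scaling. With median-of-ratios rescaling Capn8 fell by 0.57, Susd4 by 0.74 and Obp2a by 1.6 on the log2 scale, all of them still called. In bulk tissue fewer cells of a type and less RNA per cell cannot be told apart.

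Capn8 fell by 0.67 ± 0.23 in males on the log2 scale (SE, adjusted p = 0.00855 from limma with Benjamini-Hochberg adjustment over 14598 genes, 46 against 48 mice). Its median on high fat was 0.564 of that on chow, and 21 of 46 males on high fat were below the first quartile of males on chow. With rank-based normal scores the call was lost (adjusted p = 0.0846). In G11L1 mice the log2 change was -0.92 (adjusted p = 0.0182) and in G11L2 mice -0.39 (adjusted p = 0.356), and over all alternatives the adjusted p ran from 0.000388 to 0.356.

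Susd4 fell by 0.84 ± 0.22 (adjusted p = 0.000522), and 24 of 46 males on high fat were below the first quartile of those on chow. The median on high fat was 0.677 of that on chow. Its log2 change was -1.09 in G11L1 mice (adjusted p = 0.00185) and -0.58 in G11L2 mice (adjusted p = 0.163), within a range of 2.45e-05 to 0.163 over all alternatives.

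Obp2a fell by 1.69 ± 0.38 (adjusted p = 8.82e-05), and 24 of 46 males on high fat were below the first quartile of those on chow. The median on high fat was 0.185 of that on chow, and only 3 of 46 males on high fat exceeded the third quartile on chow. The change was -2.07 in G11L1 mice (adjusted p = 0.00167) and -1.32 in G11L2 mice (adjusted p = 0.0503), within a range of 4.34e-06 to 0.0503 over all alternatives.

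Selenbp2 had a log2 change of -0.33 ± 0.37 in males (adjusted p = 0.475), with a 95% interval of -1.06 to 0.40. That interval also held the estimates of Capn8 and Susd4. The SD of its log2 signal was 2.38 on high fat and 2.23 on chow.

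In females no gene of the 4 passed the test, where 33.3% of all tested genes did. Of those calls 30% were higher as deposited and 50.6% after median-of-ratios rescaling. Capn8 changed by -0.43 ± 0.22 (adjusted p = 0.128), Susd4 by -0.42 ± 0.21 (0.117), Selenbp2 by 0.09 ± 0.36 (0.870) and Obp2a by 0.14 ± 0.37 (0.801). Obp2a was under 3 reads in 41 of 48 females on high fat and 47 of 50 on chow, so a fall could not have been seen. The Capn8 value moved with the pseudocount: with one 10 times smaller it was -1.02 (adjusted p = 0.00261), and with one 10 times larger -0.08 (0.717). Its adjusted p ran from 0.00201 to 0.717 over all alternatives. It was also called in females fitted alone (-0.43, adjusted p = 0.0225).

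**Figure D2:**
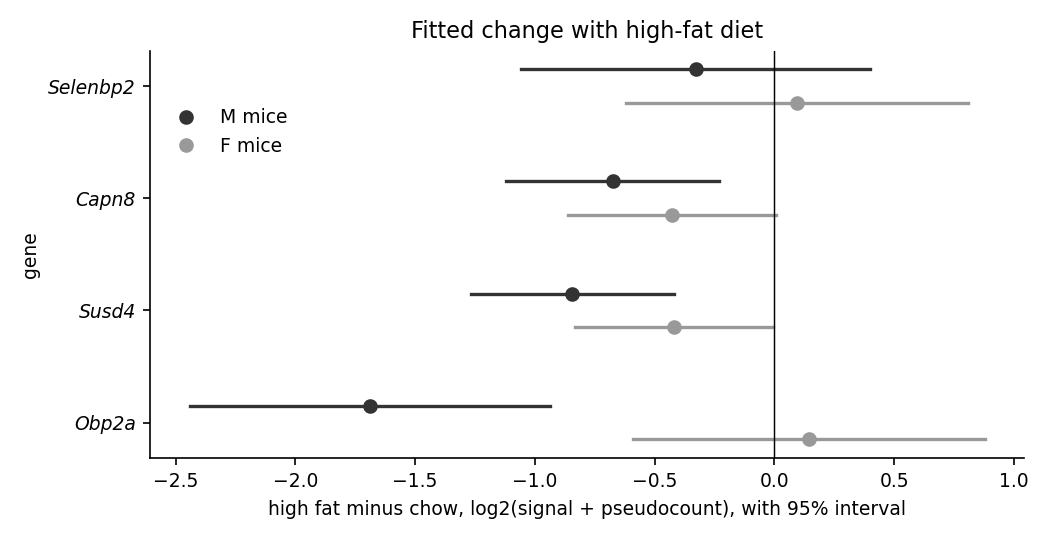
Fitted high fat minus chow difference on the log2(signal + pseudocount) scale with 95% intervals, for males (dark) and females (grey). The interval lies below 0 for Capn8, Susd4 and Obp2a in males, and that of Selenbp2 runs from -1.06 to 0.40.

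Averaged over the sexes, Capn8 (-0.55 ± 0.16, adjusted p = 0.00169), Susd4 (-0.63 ± 0.15, 0.000159) and Obp2a (-0.77 ± 0.27, 0.00944) were lower on high fat. Obp2a was at the floor in females (medians 0.014 on high fat and 0 on chow) and passed the filter through the males. Its averaged value therefore rests on the fall in males (-1.69) and shows no fall in females. Of all tested genes 56.9% were called, 41.9% lower and 15% higher, and 26.3% of the calls were higher as deposited against 52.1% after median-of-ratios rescaling. Selenbp2 was not called (-0.12 ± 0.26, 0.722).

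The test of the difference in diet effect between the sexes called only Obp2a, at -1.83 ± 0.54 (adjusted p = 0.0176 from limma, males minus females). Over all alternatives its adjusted p ran from 0.00404 to 0.411. Of all tested genes 8.38% were called in this comparison, 6.92% with a more negative effect in males and 1.46% with a more positive one. Of the calls 17.4% were positive as deposited and 50.3% after median-of-ratios rescaling. Females had next to no Obp2a signal on either diet, with medians of 0.014 on high fat and 0 on chow. Their means of 0.021 on high fat and 0.011 on chow were below the filter's cut, which Obp2a passed through the males. A fall in females could not have been seen from that level. The test therefore cannot tell a difference between the sexes from the fall in males alone (-1.69). Capn8 (-0.25 ± 0.32, adjusted p = 0.675), Susd4 (-0.42 ± 0.30, 0.396) and Selenbp2 (-0.42 ± 0.52, 0.658) were not called.

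The summed marker signals of other cell types in males are given beside these changes. Bile duct markers (7 measured) had a median sum of 13.3 on high fat (4.56 to 100.0) against 7.01 on chow (2.75 to 49.3). Of the 6 tested, 1 was called, Spp1 (0.85 on the log2 scale), whose mean of 16.7 on high fat against 9.28 on chow made up most of that sum, while Krt19 had 0.05 and Sox9 -0.18. Intestinal markers (4 measured) had 19.7 on high fat (11.2 to 32.7) against 11.8 on chow (5.76 to 25.1), nearly all of it Fabp2 (log2 change 0.77). Vil1, the other intestinal marker tested, had a log2 change of 0.04 (adjusted p = 0.819 from limma). Adipose markers (7 measured) had a median sum of 1.98 on high fat (0.289 to 26.1) against 1.21 on chow (0.2 to 6.42). Of the 2 adipose markers tested, 2 were called higher, among them Cidea (log2 change 1.30), a lipid droplet protein that also ran against Susd4 (below). Kupffer cell markers had a median sum of 73.8 on high fat against 60.1 on chow, with 4 of 8 called higher and 0 lower. Stellate markers had 58.6 on high fat against 47.9 on chow, with 3 of 8 called higher and 0 lower. Endothelial markers had 73.8 on high fat against 76.7 on chow, with 1 of 7 called higher and 2 lower. Over all tested genes 11.4% were called higher and 39.8% lower in males. Hepatocyte markers had a median sum of 25062 on high fat against 29704 on chow, with 7 of 10 called lower and 0 higher. Skeletal muscle markers stood at 0.078 on high fat against 0.089 on chow, nervous tissue markers at 5.79 on high fat against 5.70 on chow and pancreas markers at 6.29 on high fat against 7.41 on chow. Of 4 muscle markers tested 0 were called, of 3 nervous tissue markers 1 was higher, and of 11 pancreas markers 1 was higher and 1 lower. The part of these shifts in the falls of Capn8, Susd4 and Obp2a was not tested.

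Susd4 also varied more between males on high fat. The SD of its log2 signal was 1.36 on high fat and 0.735 on chow, a difference in absolute deviation of 0.54 ± 0.15 (adjusted p = 0.0376 from limma). Of all tested genes 1.21% were called for spread in males and 0.952% with more spread on high fat. This call was lost with median-of-ratios rescaling (adjusted p = 0.0527), quantile normalization (0.0507) and a pseudocount 10 times smaller (0.0776), and with one 10 times larger the adjusted p was 0.0099. None of the other 3 genes was called for spread in males, and in females none of the 4 was, where 0.288% of all genes were.

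Neither the generation label nor coat colour gave a call. Selenbp2 was nearest, at 0.64 ± 0.26 in G11L2 against G11L1 mice (adjusted p = 0.207, unadjusted p = 0.0140), and 0.945% of all genes were called. Its median in males on high fat was 170 in G11L2 and 53.5 in G11L1, and in males on chow 182 in G11L2 and 108 in G11L1. Black against agouti coats called 0.0891% of all genes (0.0343% higher, 0.0548% lower) and white against agouti 0.0137%, none of them among the 4.

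Whether males high for one of these genes were high for another was tested within each group, over 24 pairs and groups. In males on high fat, Selenbp2, Capn8 and Susd4 varied together. Pearson's r of the log2 signals was 0.78 for Capn8 with Susd4, 0.70 for Selenbp2 with Susd4 and 0.68 for Selenbp2 with Capn8 (n = 46, each adjusted p = 6e-05, permutation test, from the smallest p that 100000 permutations can give). Spearman's rho was 0.71, 0.68 and 0.69 for the same pairs. Without the 2 mice farthest from the median on the x axis r was 0.75, 0.65 and 0.65.

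In males on chow r was lower for the same pairs. Capn8 with Susd4 had r = 0.25 (n = 48, adjusted p = 0.162, permutation test), Selenbp2 with Susd4 0.09 (0.660) and Selenbp2 with Capn8 0.36 (0.0445). The difference of r between diets was itself tested by permuting the diet labels of males, over 12 pairs in both sexes. It was 0.61 for Selenbp2 with Susd4 (adjusted p = 0.009), 0.52 for Capn8 with Susd4 (0.009), 0.55 for Susd4 with Obp2a (0.0261) and 0.32 for Selenbp2 with Capn8 (0.169). This test was added after the correlations were seen.

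Those 4 differences of r were positive in both generations. For Capn8 with Susd4, r was 0.79 on high fat and 0.27 on chow in G11L1 males, and 0.74 on high fat and 0.26 on chow in G11L2 males. For Selenbp2 with Susd4 r was 0.73 on high fat and 0.01 on chow in G11L1 males, and 0.63 on high fat and 0.22 on chow in G11L2 males. Within a single generation no difference of r passed after adjustment. Without the 10 mice least like the others, the differences for Selenbp2 with Susd4 (0.65) and Capn8 with Susd4 (0.54) held, both at an adjusted p of 0.012, and that of Susd4 with Obp2a did not (0.45, adjusted p = 0.157). The last was also lost on ranks (0.39, adjusted p = 0.166).

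**Figure D3:**
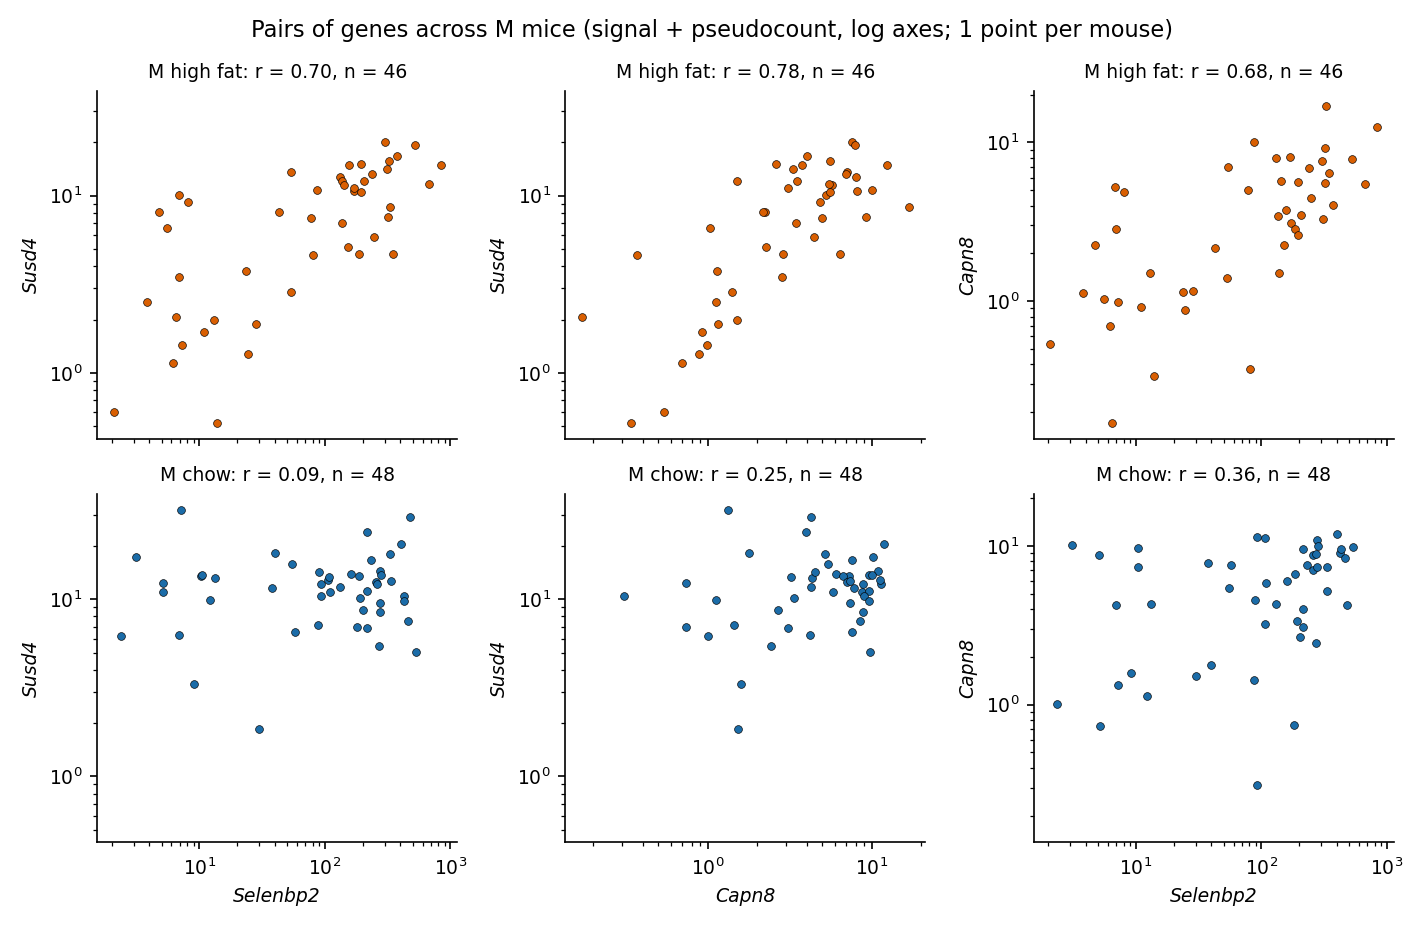
Pairs among Selenbp2, Capn8 and Susd4 in males on high fat (top row) and on chow (bottom row), signal plus pseudocount on log axes, 1 point per mouse. On high fat the points follow a diagonal (r between 0.68 and 0.78), and on chow Susd4 keeps to 1.79 to 31.9 while Selenbp2 runs from 2.31 to 535.

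Obp2a had lower r with the others. Its r with Capn8 was 0.42 in males on high fat (adjusted p = 0.0168, permutation test) and 0.34 in males on chow (0.0549), and with Selenbp2 it was 0.06 on high fat and 0.27 on chow. With Susd4 it was 0.32 on high fat and -0.23 on chow. In females Capn8 and Susd4 correlated on chow (r = 0.68, n = 50, adjusted p = 6e-05, permutation test; 0.57 without the 2 mice farthest from the median). On high fat their r of 0.43 (adjusted p = 0.0258) rested on 2 mice and was -0.06 without them. No other pair in females passed.

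The genes most like each member over the 94 males were found from residual log2 signals, after group and generation means were taken off, and are given as a description. Predicted genes, genes with clone names and pseudogenes were passed over. Among these, BC021767 had r = 0.75 with Selenbp2 and A230005M16Rik 0.80 with Obp2a, as described below. Selenbp2 was most like Gstp1, a glutathione transferase (r = 0.58), the complement component gene C8b (0.56), Dkk4, a Wnt inhibitor (0.55), Lama3 (0.55), Nudt7 (0.53) and Cd4 (0.53). It ran most against Ptgfr, a prostaglandin receptor (-0.56), the peroxisomal transporter gene Abcd2 (-0.52) and Adamts6 (-0.51).

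Capn8 was most like Cyp7b1, the oxysterol hydroxylase (0.70), Cd4 (0.70), Aadat (0.68), Serpina3k (0.67), the complement component gene C9 (0.67) and Ttbk1 (0.67). It ran most against the drug efflux pump gene Abcb1a (-0.67), Slc22a29 (-0.66) and Ptgfr (-0.64). Of the 20 genes most like each member, those with any higher signal in males were 20 for Capn8, Selenbp2 and Obp2a and 19 for Susd4. Those with a male minus female difference over 1 on the log2 scale were 16 for Capn8, 14 for Selenbp2, 10 for Susd4 and 9 for Obp2a. The shares over all genes are not given here, so nothing is read from these counts. The sets of Capn8 and Selenbp2 had 8 genes in common.

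Susd4 was most like Ces3a, a carboxylesterase (0.78), Hsd3b5, a hydroxysteroid dehydrogenase (0.75), the urinary protein gene Mup7 (0.73), Cyp7b1 (0.73), Gpld1 (0.69) and the complement protease gene C1ra (0.69). It ran most against Pgd, of the pentose phosphate pathway (-0.68), Cidea, a lipid droplet protein (-0.65), and Scd1, a fatty acid desaturase (-0.64). The r with Scd1 was -0.77 on high fat and -0.34 on chow. Susd4 shared 7 of its 20 most alike genes with Capn8 and 6 with Selenbp2.

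Obp2a was most like its neighbour Bmyc, of the Myc family (0.77), and then, at a distance, Ranbp6 (0.49), Rnase2a (0.49), Cyp4a12b (0.45), Dmac1 (0.44) and Rlim (0.44). It ran most against Zfp579 (-0.55), Fign (-0.46) and Polr3gl (-0.45). It shared 2 of its 20 most alike genes with Capn8, 2 with Selenbp2 and 1 with Susd4.

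Bmyc begins 6.7 kb from the start of Obp2a. Its signal was 0.054 to 2.92 in males on high fat (median 1.08) and 0.048 to 4.00 in males on chow (median 0.921), against 0.052 to 0.840 in females on high fat (median 0.235) and 0.014 to 0.638 in females on chow (median 0.275). Its r with Obp2a was 0.75 in males on high fat, 0.79 in males on chow and 0.33 in females. The log2 change of Bmyc with diet in males was 0.06, against -1.69 for Obp2a. A230005M16Rik, annotated as antisense and overlapping Bmyc, had an r of 0.80 with Obp2a. No source here states a strand-aware count, so reads of A230005M16Rik and Bmyc cannot be told apart. The other 30 tested genes whose lower annotated coordinate lies within 500 kb of that of Obp2a had r between -0.19 and 0.33.

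Selenbp2 also had a close neighbour with a like pattern. BC021767, a transcribed pseudogene on the minus strand whose start lies 22.9 kb before that of Selenbp2, had r = 0.75 in males and 0.50 in females. The medians of BC021767 were 0.361 in males on high fat, 0.475 in males on chow, 0.075 in females on high fat and 0.048 in females on chow. None of the 25-base words of Selenbp2 transcripts occurs in those of BC021767. Tuft1, on the minus strand with its start 34.7 kb before that of Selenbp2, had r = 0.46 in males and 0.57 in females, and Cgn, also on the minus strand and starting 92.9 kb after it, had 0.33 in males. Selenbp1 had -0.09 in males and -0.33 in females. Over the 28 tested genes chosen in the same way around Selenbp2 the median r was 0.08.

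**Figure D4:**
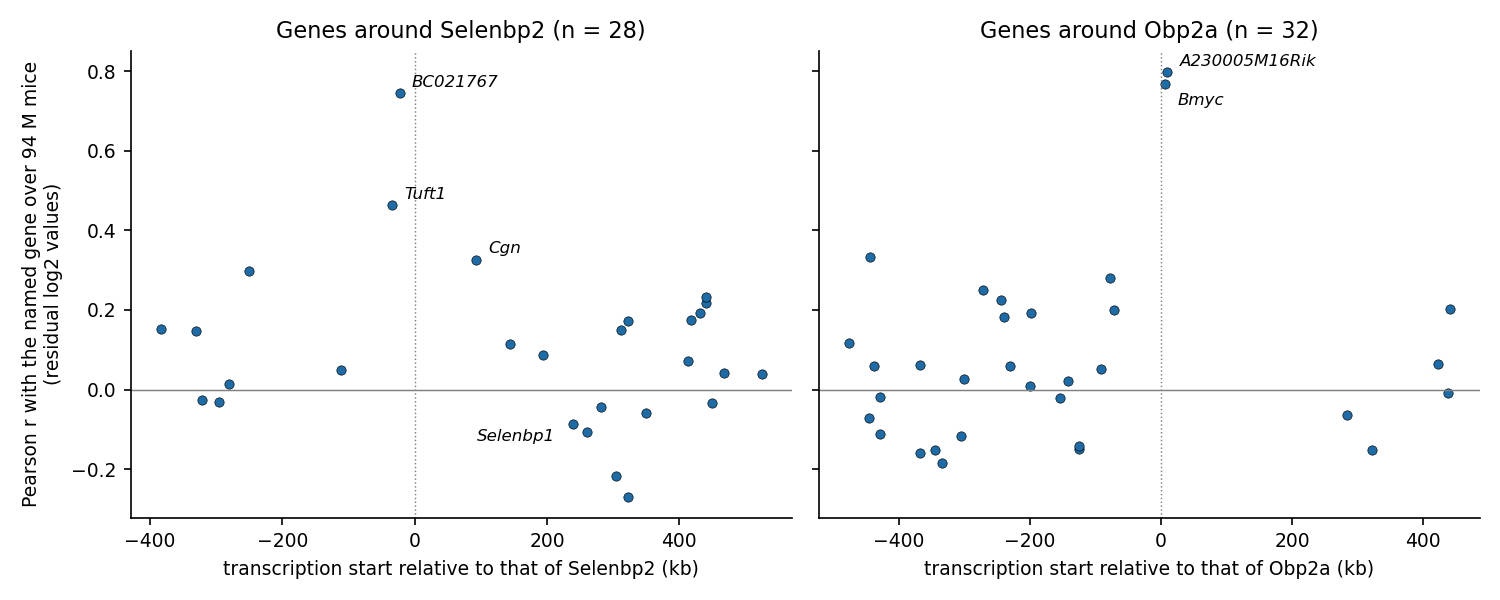
Pearson r of each neighbour with Selenbp2 (28 genes) or Obp2a (32 genes) over 94 males, against the distance between transcription starts in kb (neighbours chosen by a lower annotated coordinate within 500 kb). BC021767 (0.75) stands apart at Selenbp2, and Bmyc (0.77) and A230005M16Rik (0.80) at Obp2a, while Selenbp1 is at -0.09.

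**Figure D5:**
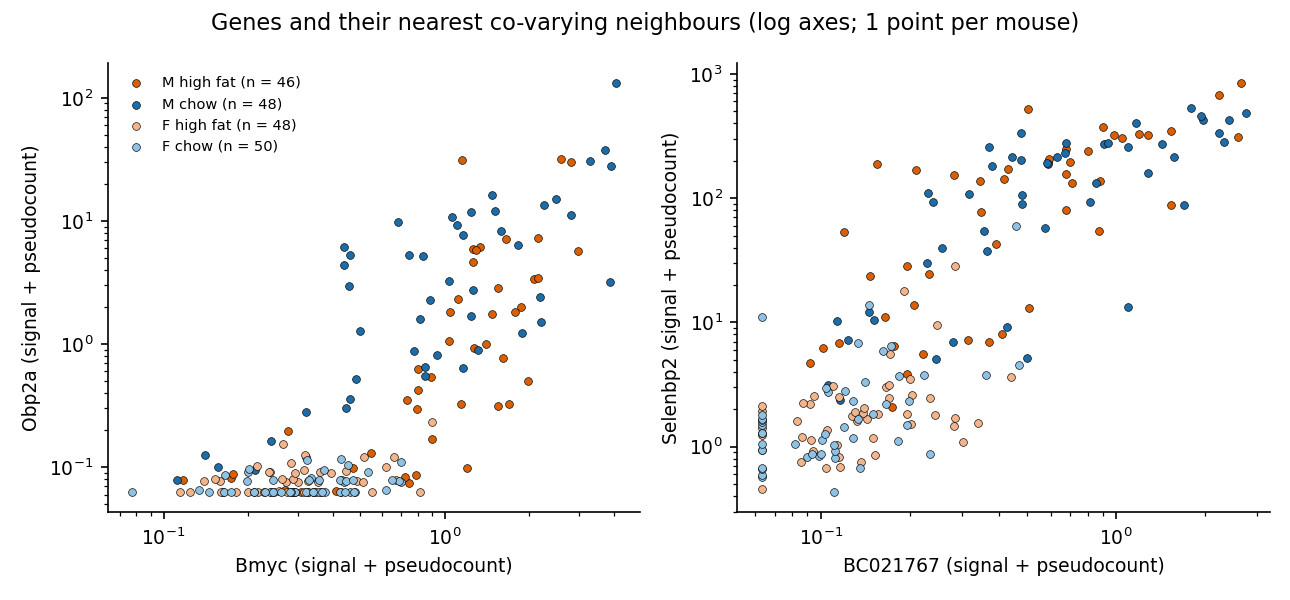
Obp2a against Bmyc and Selenbp2 against BC021767 in every mouse, signal plus pseudocount on log axes. In males Obp2a spans 0 to 131 and is high where Bmyc is high, and no female passes an Obp2a signal of 0.171.

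Capn8 and Susd4 are each among the 7 tested genes around the other. Their residual r was 0.59 over all males, 0.77 on high fat and 0.26 on chow, and 0.58 in females. Capn2, which lies 47.4 kb before Capn8 and encodes a calpain found in most tissues, had -0.31 with Capn8 and -0.46 with Susd4. Its medians were 11.2 in males on high fat, 11.7 in males on chow, 10.6 in females on high fat and 9.25 in females on chow. Capn9, the other stomach calpain, was near the floor in all groups, with a median of at most 1.5 reads.

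Lists of sex-biased liver genes were set beside the 4 genes as a description. Of the 39 tested genes listed as male-biased, 35 had a higher signal in males here, and Trim24, Sult1c2, Gsta3 and Uroc1 had a lower one. All 35 listed as female-biased were lower in males. Susd4 had a positive residual r in males with 35 of 39 genes listed as male-biased (median 0.44, against 0.07 over all genes). Over all genes 64.2% had a positive r with Susd4. With 30 of 35 female-biased genes its r was negative (median -0.27). For Capn8 the medians were 0.41 and -0.31, for Selenbp2 0.27 and -0.26, and for Obp2a 0.25 and -0.15. In females the medians with the male-biased list were between 0.05 and 0.17. The 37 growth hormone and hormone signalling genes as a list had medians near those of all genes in males, at 0.14 for Susd4 (all genes 0.07), 0.09 for Capn8 (0.05), 0.08 for Selenbp2 (0.02) and 0.02 for Obp2a (0.02). Single members varied, and those named here were picked after their values were seen. Esr1 had -0.02 with Susd4 and -0.04 with Capn8, and Ppara 0.09 with Susd4 and 0.01 with Capn8, over all males. Hnf4a had r = 0.72 with Susd4 in males on high fat and -0.10 on chow, 0.67 with Capn8 on high fat and 0.24 on chow, and 0.58 with Selenbp2 on high fat and 0.12 on chow. The growth hormone receptor gene Ghr had 0.64 with Susd4 on high fat and 0.20 on chow, and 0.55 with Capn8 on high fat and -0.20 on chow. With Selenbp2 Ghr had 0.38 on high fat and -0.22 on chow, and with Obp2a 0.39 on high fat and -0.18 on chow. Stat5b had 0.51 with Susd4 on high fat and 0.26 on chow, and 0.46 with Capn8 on high fat and 0.03 on chow. With Selenbp2 Stat5b had 0.32 on high fat and -0.30 on chow, and with Obp2a 0.18 on high fat and -0.31 on chow. Prlr, of the same list, had -0.53 with Capn8, -0.46 with Selenbp2, -0.28 with Obp2a and -0.27 with Susd4 over all males. Cux2, a repressor made in female liver, had r between -0.36 and -0.23 with all 4 over the males.

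The diet comparison was also made for lists of genes related by role, none of which holds the 4 genes. Over all genes 11.4% were higher and 39.8% lower in males, with a median of -0.097 on the log2 scale. Of the 39 genes listed as male-biased, 20 were lower on high fat and 2 higher (median -0.45), among them Elovl3, a fatty acid elongase (-1.24 ± 0.19, adjusted p = 2.13e-08), Cyp2f2 (-0.55), Cspg5 (-0.92) and C8b (-0.96). Of 35 female-biased genes 10 were higher and 3 lower (median 0.26), with Sult1e1, the estrogen sulfotransferase, at 2.79 ± 0.38 (adjusted p = 2.37e-10), Ntrk2 at 2.08 and Rtn4 at 0.78. Of 37 growth hormone and hormone signalling genes 18 were lower and 1 higher (median -0.17), including Stat5b (-0.31), Hnf4a (-0.35), Pgrmc1 (-0.32) and Onecut2 (-0.32).

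Of 10 tested calpain genes and calpastatin, Capn8 aside, 3 were lower and 2 higher (median -0.06). Capn15 (-0.27), Capn10 (-0.39) and Capn7 (-0.13) were lower, and the small subunit gene Capns1 (0.16) was higher. Of 26 genes of selenium-binding proteins and selenoproteins 16 were lower and 4 higher (median -0.16), with Selenok (-0.33), Txnrd1 (-0.27), Selenoi (-0.41) and Secisbp2 (-0.24) having the smallest p. Of 9 lipocalins outside the urinary proteins 2 were higher, Lcn2 (2.08) and Orm3 (0.95), and 2 were lower, Ambp (-0.20) and Apom (-0.35). Of 38 complement genes 14 were lower and 4 higher (median -0.10), with C3 (-0.40), Mbl1 (-0.32), Vtn (-0.30) and C8b (-0.96, also in the male-biased list) having the smallest p.

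In females, 14 of the 39 male-biased genes were lower on high fat and 1 higher, and 10 of the 35 female-biased genes were lower and 5 higher. Of the 37 growth hormone and hormone genes 13 were lower and none higher. The calpain list had 2 lower and 3 higher, the selenium list 11 lower and 3 higher, the lipocalins 4 lower and none higher, and the complement list 18 lower and none higher. Over all genes 23.3% were lower and 10% higher in females.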

How the data were processed

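Liver messenger RNA libraries (TruSeq, per the labels' protocols) were read as single-end 100 bp reads, and the values deposited by the authors are an upper-quartile normalized signal for 21454 genes in 192 mice. Per the submitters' processing notes, CASAVA 1.8.0 was used, with the genome given as GRCm38 or mm10. The aligner and counting tool are not given in the sources used here. IDs were matched to GENCODE M21 (21022 of 21454). Low values gave a whole number of reads, within 0.1, for 76.8% to 82.4% of values up to 100 reads, so no count test was run and depth (9.79 to 17.9 M reads) is an estimate. Precision rests on the number of mice.

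Genes above 0 in at least 48 mice with a mean of at least the pseudocount (0.0629, about 3.99 reads) were tested, 14598 in all. limma 3.58.1 (R 4.3.3) fitted the 4 groups with the generation label as covariate, on log2(signal + pseudocount), which understates changes of low genes. A gene was called at an adjusted p under 0.05. Coat colours were compared in 186 mice. Correlations used 100000 permutations. Numbers shared by a male and a female (92 pairs) did not pair them: r of their deviations ran from -0.178 to 0.315, median 0.004. Alternatives were other pseudocounts, filters, scalings, rank scores, moderation, each generation alone, the mouse number as a block, and mice left out. The fit was tested on simulated data. Python 3.11.15 (numpy 2.4.6, scipy 1.17.1, pandas 2.3.3, matplotlib 3.10.9) did the rest.

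The 4 genes, the 7 gene lists and the 12 marker lists were chosen with earlier results of these data known. The text names the 4 genes, the 6 most and 3 least alike genes of each (predicted genes, genes with clone names and pseudogenes passed over), up to 4 members per list with the smallest p for diet in males, genes within 500 kb, and paralogs. The test of a difference of r between diets was added after the correlations were seen. Hnf4a, Ghr, Stat5b, Prlr, Cux2, Esr1, Ppara, Cyp4a12a, the list members that went against their list's name and the markers were named after their values were seen.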

Additional observations from a re-analysis of the deposited data

Results flagged for a closer look

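The test of the difference in diet effect between males and females called Obp2a (-1.83 ± 0.54 on the log2 scale, males minus females, adjusted p = 0.0176 from limma). The medians were 0.519 in males on high fat and 2.80 in males on chow, and 0.014 in females on high fat and 0 in females on chow, at the floor. A fall in females could not have been seen from that floor. The test therefore cannot tell a difference between the sexes from the fall in males alone (-1.69). Without the 10 mice least like the others the difference was -1.60 (adjusted p = 0.0430), and without the mice with pancreas transcripts -2.13 (0.00404). The call was lost in G11L1 mice alone (-2.21) and in G11L2 mice alone (-1.47), and the adjusted p reached 0.411 over the alternatives.

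Correlations between Susd4 and the other genes differed between the diets in males by permutation of the diet labels. The r on high fat exceeded that on chow by 0.61 for Selenbp2 with Susd4, by 0.52 for Capn8 with Susd4 and by 0.55 for Susd4 with Obp2a. The last was lost without the 10 mice least like the others (adjusted p = 0.157) and on ranks (0.166), and no pair passed within 1 generation. Susd4 was also more spread on high fat (SD of log2 signal 1.36 against 0.735 on chow), and the part of that spread in the differences of r was not tested.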

How the results depend on the processing

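Among the diet, generation, coat and spread results of the 4 genes, 325 alternative values kept their direction and call, 13 lost the call, 3 gained it and 7 changed sign. The cause was not tested, and the fits to one generation hold fewer mice. In G11L2 mice alone the calls in males were lost for Capn8 (-0.39), Susd4 (-0.58) and Obp2a (-1.32), as were those averaged over the sexes (-0.47, -0.51 and -0.59). The Obp2a difference between the sexes was not called in G11L1 (-2.21) or G11L2 (-1.47) mice alone. Rank scores ended the call of Capn8 in males (-0.28) and of Obp2a averaged over the sexes (-0.14), and turned the sign of Selenbp2 averaged over the sexes (0.044). Capn8 in females was called with the smaller pseudocount (-1.02), rank scores (-0.50) and females alone (-0.43, added after seeing the data). Its difference between the sexes turned positive with the smaller pseudocount (0.32), rank scores (0.22) and G11L2 mice (0.16). The spread call of Susd4 in males was lost with the smaller pseudocount (0.55), median-of-ratios (0.51) and quantile scaling (0.52). Sign also turned for Capn8 in white against agouti mice (-0.053) and for its spread in females (0.23) with the smaller pseudocount, and for the spread of Obp2a in males with the larger one (-0.27).

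Of the correlations and counts of called genes, 176 values kept direction and call, 10 lost the call, 12 turned sign and 8 counts moved. Correlations that turned sign were small and none was called, other than Capn8 with Susd4 in females on high fat (-0.062 without the 2 mice farthest from the median). Selenbp2 with Obp2a in males on high fat came to -0.0048 (larger pseudocount), -0.13 (G11L2) and -0.029 (without 2 mice). In females on high fat, Selenbp2 with Capn8 came to -0.18, Selenbp2 with Obp2a to -0.050 and Capn8 with Obp2a to -0.15, each in G11L1, and Selenbp2 with Susd4 to -0.035 (smaller pseudocount) and -0.012 (median-of-ratios). In females on chow, Capn8 with Obp2a came to -0.062 (G11L2) and -0.13 (without 2 mice), and Susd4 with Obp2a to 0.00084 (G11L1).

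With the mouse number as a replicate block the Obp2a change in males was -1.69 and 7478 genes were called, and the block changed no call on the 4 genes. The number called in males was 7477, against 4914 with quantile scaling and 4929 in G11L2 mice. In females it was 4860, against 2348 in G11L1 and 2432 in G11L2 mice. For the difference between the sexes it was 1223, against 618 with median-of-ratios, 630 with quantile scaling, 545 in G11L1 and 54 in G11L2 mice.

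Depth limits Obp2a and Capn8 in females, where most mice have a few reads, so folds there depend on the pseudocount. Reads shared between Selenbp2 and Selenbp1 limit the low values of Selenbp2.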

Other observations

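In females the r of Capn8 with Susd4 was 0.43 on high fat and 0.68 on chow, a difference of -0.24 (adjusted p = 0.486, permutation test over 12 pairs), and without the 2 mice farthest from the median on the x axis the high fat value was -0.06. Of the 5 females on chow highest for Capn8, 4 were among the 5 highest for Susd4, and of the 5 lowest 1 was shared. Because 16 of 50 females on chow had fewer than 3 reads of Capn8, which of them were lowest is uncertain. Of the 5 males on high fat lowest for Capn8, 3 were among the 5 lowest for Susd4, and of the 5 highest 0 were shared.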
